A study of Mus musculus with 2 samples.

Results

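CTCF is a zinc finger protein that stops cohesin at the anchors of chromatin loops. Its binding was examined at 7 mouse genes whose products take cohesin off DNA, oppose its release or regulate its acetylation. These genes, Wapl, Pds5a, Pds5b, Esco1, Esco2, Hdac8 and Cdca5, were chosen by name from 21938 protein-coding genes. A peak belonged to a gene when its summit lay within the gene or the 20 kb on either side of it. Of the 50909 peaks in the list called optimal by its depositors, 26 met this rule.

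The data were chromatin immunoprecipitation with sequencing (ChIP-seq) of CTCF in livers of B6NCrl mouse embryos at day 14.5. Livers of several dissections and of both sexes were pulverised and pooled, and the 2 libraries, numbered as biological replicates 1 and 2, share 1 biosample. There was no other group and no altered gene, so no test between conditions could be made, and the spread between the libraries may be technical. Pooled tissue mixes blood-forming cells, hepatoblasts and other cells, and CTCF peaks do not tell these apart. The number of reads is unknown. Positions are on build mm10 and genes are from GENCODE vM21.

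Cohesin is a ring of SMC and kleisin subunits that holds DNA and extrudes loops. The protein WAPL, helped by PDS5A or PDS5B, opens the ring and releases it. Acetylation of the SMC3 subunit by ESCO1 or ESCO2 protects cohesin from release, sororin (the product of Cdca5) binds acetylated cohesin and opposes WAPL, and HDAC8 removes the acetyl group so that cohesin can be used again. PDS5 proteins also take part in acetylation. Loops held by CTCF depend on the balance of these activities. The liver of the mid-gestation embryo makes red blood cells, and the progenitors of these cells divide rapidly.

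The sequences under 9 of the 26 peaks are given first, as examples of strong peaks, repeat-borne peaks and exact motif copies. They were picked from 18 extracted sequences, and letters alone do not part these groups. A Pds5b peak not printed here, on sequence not marked as repeat, was identical to the 4 printed repeat copies at 20 or 21 of 30 bases. Each printed line is the reference sequence, 5′ to 3′ on the strand that reads as the core CTCF motif. The 14 motif bases are in capitals, with 8 bases on each side. Up to 2 mismatches were allowed, and the whole motif, on either strand, had to lie no more than 50 bp from the summit. Such a match lay near 70.8% of all optimal summits, against 3.0% of windows of the same length moved by 1 kb. It is a description of the letters there. The first 3 lines come from strong peaks at gene starts and have 1 mismatch each.
Pds5b start, chr5:150673685-150673714, plus strand: ccgtgcggCCGGTAGGGGGCGCtgagaacc
N4bp2l2 start, upstream of Pds5b, chr5:150665862-150665891, minus strand: gcgtccatCCACCTGGGGGCGCcaagcact
Tm7sf2 start, upstream of Cdca5, chr19:6067138-6067167, minus strand: tggctcggCCTGCAGGTGGCGCtctatttg
The next 4 lie on sequence that the reference genome marks as repeat.
Pds5a intron, chr5:65667869-65667898, minus strand: cagacatgCCAGAAGAGGGCATcagatctc
Pds5a upstream, chr5:65706362-65706391, minus strand: tgcagaggCCAGAAGAGGGCATtagagcat
Pds5a upstream, chr5:65709629-65709658, minus strand: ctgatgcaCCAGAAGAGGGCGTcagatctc
Hdac8 intron, chrX:102476976-102477005, minus strand: tgcagagaCCAGAAGAGGGCGGgagatcat
The last 2 match the motif without a mismatch and share the same 14 bases.
Pds5b intron, chr5:150702881-150702910, minus strand: tctgagaaCCAGCAGGTGGCACactcatta
Hdac8 intron, chrX:102494143-102494172, plus strand: gttgactgCCAGCAGGTGGCACttgaccca

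CTCF stood at the starts of 4 of the 7 genes. Pds5a, Pds5b, Esco1 and Cdca5 had an optimal summit no more than 1 kb from a transcript start in the annotation, and Wapl, Esco2 and Hdac8 had none. Over all protein-coding genes the share with such a promoter peak was 35.2%, and with 7 genes the share of the list is not told apart from it. Each replicate's own 50909 strongest peaks, as many as the optimal list holds, also gave 4 genes, against 39.4% of all genes in replicate 1 and 31.7% in replicate 2. Replicate 2 gave the same 4 genes as the optimal list, and replicate 1 did not. In replicate 1, Wapl was counted and Cdca5 was not. The conservative list, the shorter of the deposited pair, gave 5 genes by adding Wapl, against 34.4% of all genes.

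Signals of the peaks in these windows ranged from far above the list's median to far below it. The signal is the peak caller's own value on a scale that is not stated, with a median of 68.0 and a highest value of 747 in the optimal list. Optimal and conservative peaks both carry the signal of the pooled list. Of the 26 peaks, 6 had signals from 234.8 to 485, 3 had signals from 82.5 to 142, and 17 lay below the list's median, from 17.1 to 62.5. All 6 strong peaks stood within 1 kb of a transcript start, 3 at a member and 3 at a neighbouring gene, as did 13 of all 26. Over the whole list, 11216 of 50888 optimal peaks stood so near a start, and 5060 of the 25444 above the median. Optimal peaks near a start had a median signal of 57.3, against 70.6 elsewhere, so peaks above the median did not favour starts in general. The share near a start among optimal peaks as strong as these 6 was not counted. The weakest of the strong peaks, with 234.8, was above 84.3% of optimal peaks. Peaks above the median made up 34.6% (9 of 26, Wilson 95% interval 19.4 to 53.8), against 50% of the whole list, a share that the interval includes.

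**Figure D1:**
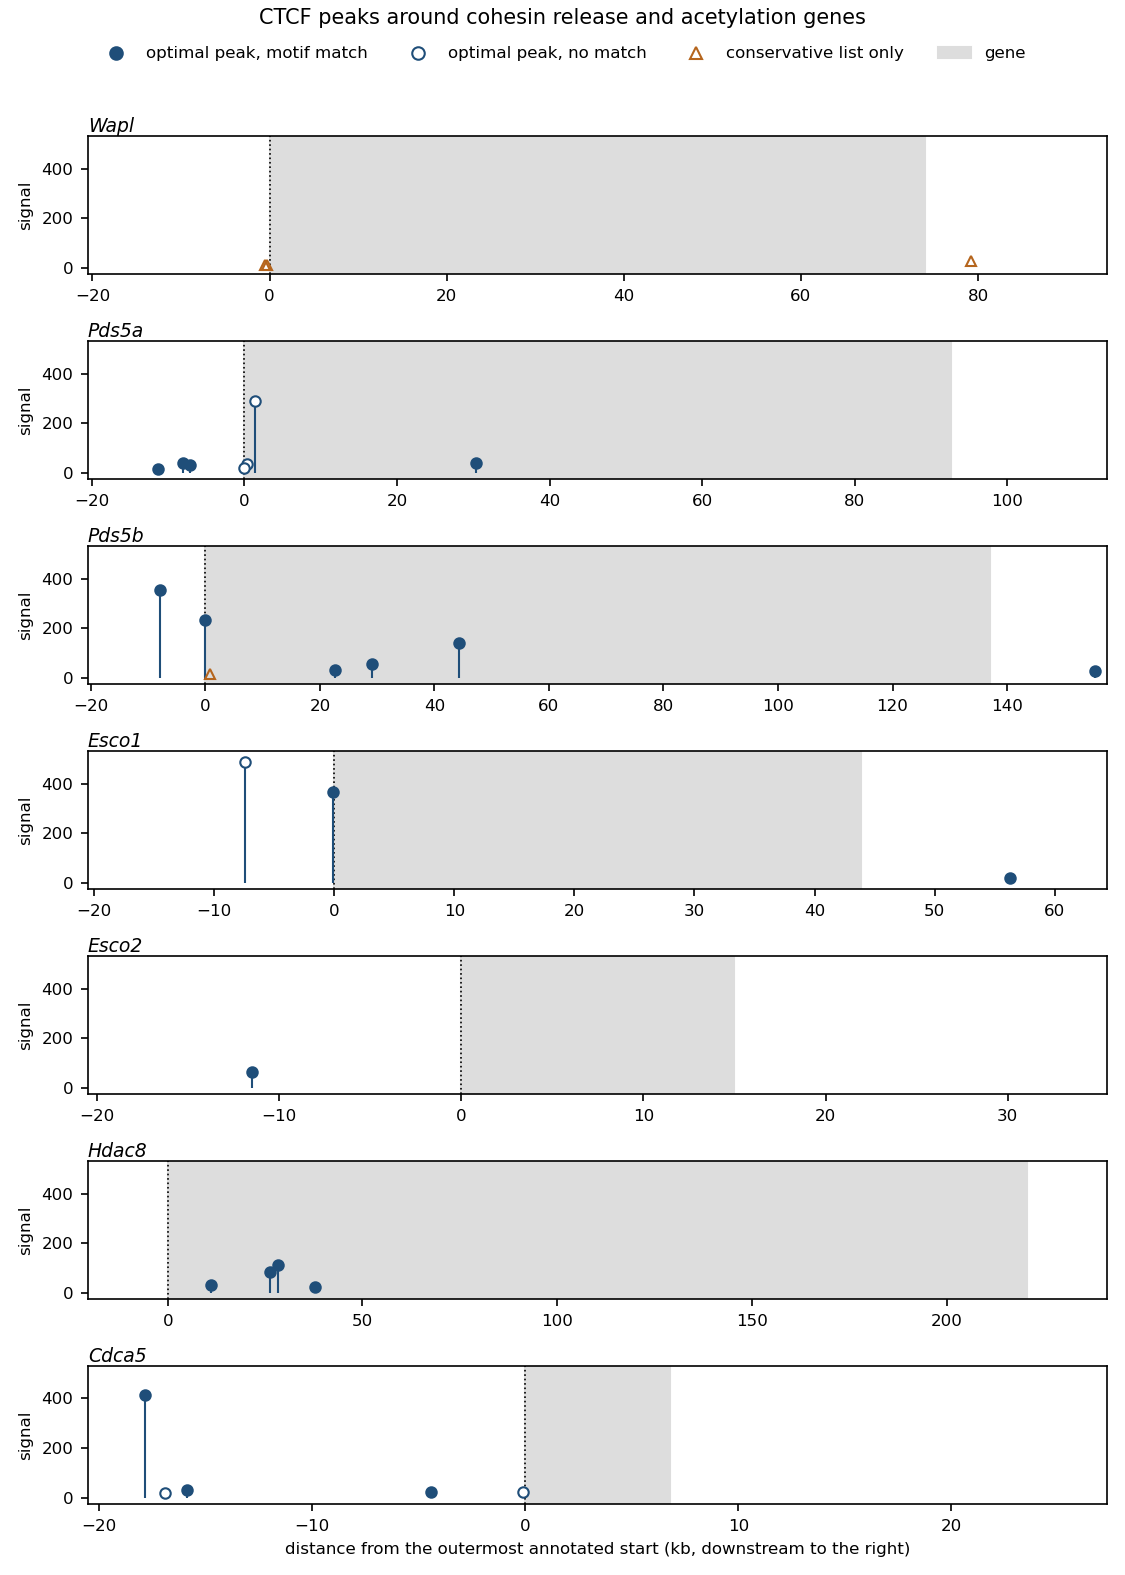
Optimal CTCF peaks in the 7 gene windows, placed by distance in kb from the outermost annotated start (x axis, downstream to the right) with signal on the y axis. Filled circles have a motif match, open circles have none, triangles are conservative peaks with no optimal summit within 100 bp, and grey marks the gene. The 6 tallest stems, from 234.8 to 485, all stand at gene starts.

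Among the release genes, Wapl had no optimal peak. Its window of 114 kb on chromosome 14 runs 20 kb beyond both ends of the gene (34673928 to 34747983), and 78.7% of protein-coding genes had at least 1 optimal peak in theirs. The nearest optimal summits lay 49.8 kb to the left of the gene and 21.2 kb to the right, leaving a gap of 145 kb around its start. Of all gaps between neighbouring optimal summits, 93.8% were shorter. A gap picked because it holds a given point tends to be long, so this share overstates how unusual the gap was. The same share was 94.8% at Hdac8, 82.0% at Esco1, 79.6% at Esco2, 74.2% at Cdca5, 61.3% at Pds5b and 1.66% at Pds5a. The conservative list nevertheless held 3 peaks in the Wapl window. A pair stood at the start that Wapl shares with the divergent noncoding gene 5830448L01Rik, 507 and 291 bp upstream, with signals of 13.3 and 10.4 and no motif match.

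Neither of that pair was found within 100 bp in both libraries. Replicate 2 held the one 507 bp upstream, at rank 57458 and a relative signal of 0.216. Replicate 1 held the other, at rank 46482 and a relative signal of 0.374. Relative signal is the signal of a library's own peak divided by the median of its 50909 strongest peaks. The third conservative peak, at 34753005 to 34753320 beyond the 3′ end of Wapl, had a signal of 27.6, a motif match with 1 mismatch, and relative signals of 0.306 in replicate 1 and 0.484 in replicate 2. This peak was stronger than 19.9% of the optimal peaks, although the optimal list left it out. The empty Wapl window is thus a property of that list, and weak peaks were present in the others.

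Pds5a held 7 peaks in 132.6 kb on chromosome 5 (gene at 65605721 to 65698273), the most of the 7 genes. At its starts, 14 in the annotation and more than at any other of the 7 genes, lay 3 of these peaks. Over all protein-coding genes, without matching for the number of starts, 2.1% had 3 or more promoter peaks. The strongest, at 65696763 to 65697028, had a signal of 289, above that of 84.7% of the strongest promoter peaks of other genes. Its relative signals were 5.25 and 3.69 in replicates 1 and 2, or 4.47 ± 1.10 (SD, n = 2). The summit lay in an untranslated exon, 36 bp upstream of the start of a retained-intron transcript, Pds5a-204. From the nearest start of a coding transcript, Pds5a-201, it lay 955 bp downstream, and from the outermost start 1372 bp.

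The remaining pair of Pds5a promoter peaks was weak. One stood 122 bp upstream of the Pds5a-201 start with a signal of 36.5 and relative signals of 0.630 and 0.413. The other stood 59 bp upstream of the outermost start with a signal of 19.04, relative signals of 0.162 and 0.420, and no conservative peak. All 3 lacked a motif match, and the weak pair lay in sequence of 84.1% and 82.1% G and C within 100 bp of the summit. Away from the starts, an intron held 1 peak (signal 39.96) and the intergenic upstream flank held 3, with signals of 31.0, 39.5 and 17.1 at 7180, 8107 and 11380 bp from the outermost start.

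Pds5b, the paralogue of Pds5a, held 6 peaks in 177 kb on chromosome 5 (gene at 150673739 to 150810690), and every one had a motif match. Its promoter peak, at 150673583 to 150673845, had its summit 19 bp upstream of a coding start and a signal of 234.8. Relative signals there were 3.92 and 3.15, or 3.54 ± 0.544 (SD, n = 2). A stronger peak stood at the start of the upstream neighbour N4bp2l2, 7861 bp from the Pds5b start, with a signal of 352 and relative signals of 6.43 and 4.13. The motifs of these 2 peaks pointed away from each other. So the start of Pds5b carried a motif-bearing peak close to its coding start, whereas the strongest peak of Pds5a had no match and lay 955 bp downstream of its nearest coding start.

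Within Pds5b, 3 intronic peaks lay 22580, 29142 and 44256 bp downstream of the outermost start. The farthest was the strongest, with a signal of 142 and relative signals of 1.99 and 2.46. The middle one was the exact motif copy printed above. It had a signal of 56.1 and differed 7.26-fold between the libraries, with relative signals of 0.196 in replicate 1 and 1.42 in replicate 2, and no conservative peak. Over all optimal peaks, 90 carried the same 14 bases, with signals from 16.2 to 617 and a median of 140, so the same core occurred in strong and weak peaks. A sixth peak lay beyond the 3′ end in the noncoding gene Gm36447, with a signal of 29.3.

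The acetyltransferase genes differed from each other. Esco1, on chromosome 18 at 10566507 to 10610352, held 3 peaks in 83.8 kb and the strongest promoter peak of the 7 genes. It stood at 10610272 to 10610589, 75 bp upstream of a coding start, with a signal of 366. Relative signals were 6.29 and 4.83, or 5.56 ± 1.03 (SD, n = 2). Its motif match had 1 mismatch and ran in the direction of the gene. The strongest of all 26 peaks lay 7402 bp upstream of Esco1, at the start of Snrpd1, which encodes a core protein of spliceosomal particles. Its signal was 485, above 98.9% of optimal peaks, with relative signals of 8.75 and 5.96 and no motif match. A weak peak of signal 21.5 stood at a start inside Greb1l, beyond the 3′ end, and was absent from the conservative list.

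Esco2, which acts during DNA replication, held 1 optimal peak in 55.0 kb on chromosome 14 (gene at 65819038 to 65833994), fewer than any other gene but Wapl. It lay 11474 bp upstream in an intron of Ccdc25, with a signal of 62.5, relative signals of 0.748 and 1.22, and a motif match. At the starts of Esco2 the pooled list of 300000 peaks held none within 1 kb, whereas 55.2% of the genes without an optimal promoter peak had one there. In the replicates' lists of 300000, replicate 1 held 1 peak there and replicate 2 held 3, and the strongest had relative signals of 0.143 and 0.138. Thus Esco1 and Esco2 stood at opposite ends of the promoter signals of the 7 genes.

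Hdac8, the deacetylase gene, is the longest, at 102284639 to 102505359 on X, and held 4 peaks in 260.7 kb, all intronic and all with a motif match. They were gathered in the 5′ part of the gene, 11193, 26226, 28378 and 37750 bp downstream of its outermost start, with none in the rest of its 220.7 kb. The peak 28378 bp downstream was the strongest, with a signal of 112 and relative signals of 1.48 and 1.78. The one at 26226 bp had a signal of 82.5 but differed 4.78-fold between libraries, at 0.434 in replicate 1 and 2.07 in replicate 2. The peak at 11193 bp carried the exact motif printed above, with a signal of 33.8.

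No optimal peak lay at a start of Hdac8, and the nearest one on the upstream side of the gene was 155.6 kb away. The pooled list had a peak 24 bp downstream of a start with a signal of 7.63, at rank 135340. Optimal peaks on X had a median signal of 56.5, against 68.4 on the autosomes, and the part of this in the Hdac8 values was not tested.

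Cdca5, which encodes sororin, is the shortest gene, at 6084983 to 6091777 on chromosome 19, and held 5 peaks in 46.8 kb of gene-rich sequence. All 5 lay within 1 kb of a transcript start, but 4 of them at neighbours. The peak at the start shared with the divergent gene Zfpl1 lay 87 bp upstream of Cdca5, in an untranslated exon of Zfpl1. It was weak, with a signal of 23.7, relative signals of 0.260 and 0.337, or 0.299 ± 0.0544 (SD, n = 2), and no motif match. Only 14.7% of genes with a promoter peak had a weaker one. In replicate 1 it ranked 64398, outside the 50909 strongest, and in replicate 2 it ranked 44720.

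The strong peak of the Cdca5 window lay 17830 bp upstream, in coding sequence of Tm7sf2 within 1 kb of a start of that gene, with a signal of 414 and relative signals of 6.93 and 5.35. Weak peaks stood nearby at starts of Tm7sf2 and Vps51 (signals 19.7 and 30.3) and at Tmem262 (25.1). In 3 of the 6 windows that held a peak, those of Pds5b, Esco1 and Cdca5, the strongest peak thus stood at the start of another gene.

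The order of the strongest promoter peaks was Esco1, Pds5a, Pds5b and Cdca5 in both libraries. The difference in relative signal between Esco1 and Pds5a was 1.04 in replicate 1 and 1.14 in replicate 2. That between Pds5a and Pds5b was 1.32 and 0.540, or 0.931 ± 0.553 (SD, n = 2), so their order rests on differences of unequal size. Pds5b exceeded Cdca5 by 3.66 in replicate 1 and 2.82 in replicate 2, or 3.24 ± 0.598 (SD, n = 2). None of these differences was tested.

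**Figure D2:**
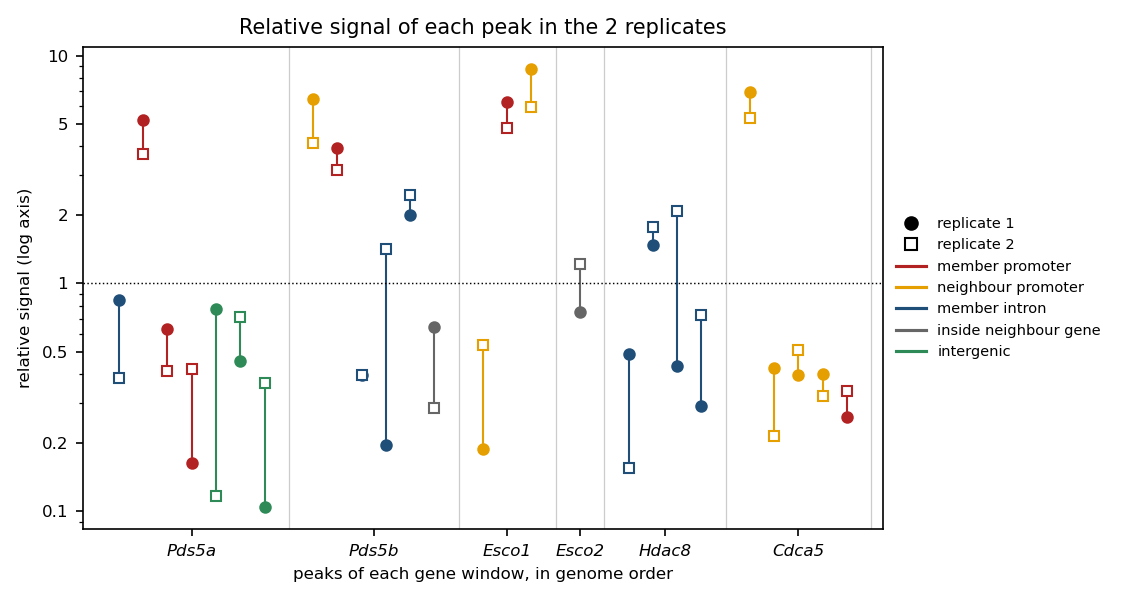
Relative signal of each of the 26 peaks in replicate 1 (filled circle) and replicate 2 (open square) on a log axis, coloured by position and joined by a line, with 1 marking the median of a library's strongest peaks. The 6 strong peaks are higher in replicate 1 and lie near each other in both libraries, whereas several intronic and intergenic peaks are far apart.

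Both libraries supported all 26 peaks, in that each replicate's full list held a summit within 100 bp, as was the case for 93.5% of all optimal peaks. Fewer peaks were supported when each library's list was cut to its strongest peaks. Of the 26, 17 were among the 50909 strongest in both libraries, or 65.4% against 76.7% of all optimal peaks, and 20 were in the conservative list, or 76.9% against 86.4%. The 6 that were not had signals from 17.1 to 56.1. The relative signal differed more than 2-fold between the libraries at 10 of the 26 peaks, against 23.1% of all optimal peaks found in both. The largest difference, 7.26-fold, was that of the intronic Pds5b peak, and the next, 6.63-fold, was that of the Pds5a peak 7180 bp upstream.

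Replicate 1 gave the higher relative signal at all 6 strong peaks. Among the optimal peaks at least as strong as these and found in both libraries, 90.9% did so, so this difference was shared by strong peaks in general. At the 13 member-window peaks within 1 kb of any transcript start, replicate 1 was higher at 9, or 69.2%, against 81.5% of all optimal promoter peaks. At the 13 elsewhere it was higher at 5, or 38.5%, against 58.8%. Each replicate alone gave 24 and 27 peaks in the windows.

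Gene starts and other sites differed in sequence. All 13 peaks away from gene starts had a motif match, against 76.7% of all such optimal peaks. Of the 13 at gene starts, 7 had one, or 53.8%, against 49.8%. Of the 4 genes with a promoter peak, Pds5b and Esco1 had a match at the strongest one, so 2 of 4. Genome-wide, 48.0% of strongest promoter peaks had one. Together 20 of 26 matched, or 76.9% (Wilson 95% interval 57.9 to 89.0), against 70.8% of all optimal peaks, and this order turned with at most 1 mismatch, at 38.5% against 39.7%. Both of the exact matches lay below the median signal of the list (33.8 and 56.1), while exact matches over the whole list had a median signal of 195. The 8 peaks with 1 mismatch had a median signal of 189 and the 10 with 2 mismatches had 30.3, against 102 and 62.2 over the whole list. Median GC content within 100 bp of the summit was 63.7% at gene starts and 44.3% elsewhere, against 58.2% and 48.8% over all optimal peaks.

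Repeat sequence held a share of the motif matches close to that in the whole list. Of the 20 motif matches, 6 lay on bases the reference genome marks as repeat, or 30%, against 27.1% of all optimal matches. They comprised 3 at Pds5a, 1 in an intron of Pds5b, 1 near Esco1 and 1 in Hdac8. The core CCAGAAGAGGGCAT, found under 2 of the Pds5a peaks, occurred under 2079 optimal peaks, 93.2% of which had a summit on marked repeat. Those peaks had a median signal of 45.8. The third Pds5a repeat peak had the core CCAGAAGAGGGCGT, which occurred under 790. Rodent SINE B2 elements are known to carry CTCF motifs, but the repeat family of these copies was not looked up. Over the printed 30 bases, the Pds5a peak 8107 bp upstream and the Hdac8 peak 28378 bp downstream, on different chromosomes, were identical at 25, against a median of 14 over all 153 pairs of the 18 extracted sequences. The signals of these 2 were 39.5 and 112. Over the whole list, matches on marked repeat had a median signal of 56.4 and other matches 112.

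The direction of the motifs showed no single arrangement. Of 14 neighbouring pairs of motif-bearing peaks within the windows, 7 had motifs on the same strand, 4 pointed apart and 3 pointed towards each other. Those that pointed towards each other were the Esco1 promoter and the weak Greb1l peak 56.3 kb away, the Pds5b promoter and its first intronic peak 22.6 kb away, and 2 Pds5a peaks 0.927 kb apart. In Hdac8 the 3 peaks farthest inside the gene had motifs in the direction of the gene, and the one nearest the start had the opposite direction.

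Windows of these genes were not dense in peaks as a set. Cdca5 had 10.7 peaks per 100 kb, more than 88.5% of protein-coding genes, and Pds5a had 5.28. Esco1 had 3.58, Pds5b 3.39, Esco2 1.82, Hdac8 1.53 and Wapl 0. The median over the 7 was 3.39, beside 3.76 over all protein-coding genes, whose quartiles were 1.08 and 7.19.

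**Figure D3:**
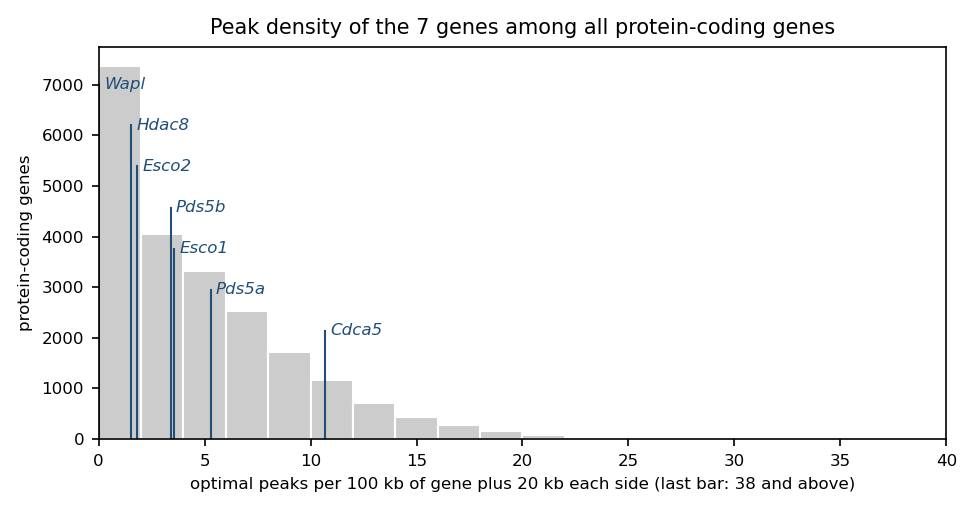
Optimal peaks per 100 kb of the gene plus 20 kb on each side (x axis) for all 21938 protein-coding genes (grey bars, number of genes on the y axis) and the 7 genes (blue lines). Wapl lies at 0 and Cdca5 at 10.7, on either side of the median of 3.76.

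Base composition at the starts did not fully sort the genes with an optimal promoter peak from those without, with Wapl as the exception. Within 500 bp of the outermost start, GC content was 71.1% at Wapl, which had no optimal peak, and 73.9% at Pds5a. It was 67.1% at Pds5b, 62.4% at Esco1, 56.9% at Cdca5, 52.1% at Esco2 and 46.8% at Hdac8. The medians were 58.5% over all genes with a promoter peak and 51.7% over those without. Esco2 and Hdac8 were on the low side of the first value and so was Cdca5, whereas Wapl was well above both. By the conservative list, which gave Wapl a promoter peak, the genes with one had 56.9% or more, and Esco2 and Hdac8 had less. The ratio of observed to expected CpG was 0.897 to 1.10 at those genes, 0.750 at Esco2 and 0.410 at Hdac8. Its medians were 0.712 over all genes with an optimal promoter peak and 0.354 over those without. By this ratio Esco2 lay above both medians, and Hdac8 lay between them. None of these differences in composition was tested.

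Other cohesin genes were placed beside these by counts. Of 7 ring and loading genes (Smc1a, Smc3, Rad21, Stag1, Stag2, Nipbl and Mau2), 5 had a promoter peak, as did 5 of 7 genes of mitotic removal and protection (Plk1, Aurkb, Sgo1, Sgo2a, Espl1, Pttg1 and Haspin) and 1 of 4 meiotic ring genes (Smc1b, Rec8, Rad21l and Stag3). The background of 35.2% applies to each list. Stag1, a ring subunit, had the strongest of these, with a relative signal of 4.99 ± 0.813 (SD, n = 2), followed by the ring subunit Smc3 at 4.71 ± 0.352 (SD, n = 2) and Haspin, a mitotic kinase, at 4.48 ± 0.915 (SD, n = 2). These values lay between those of Esco1 and Pds5b, so the strong promoter peaks of release and acetylation genes had counterparts in the other lists. The difference between lists was not tested.

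**Figure D4:**
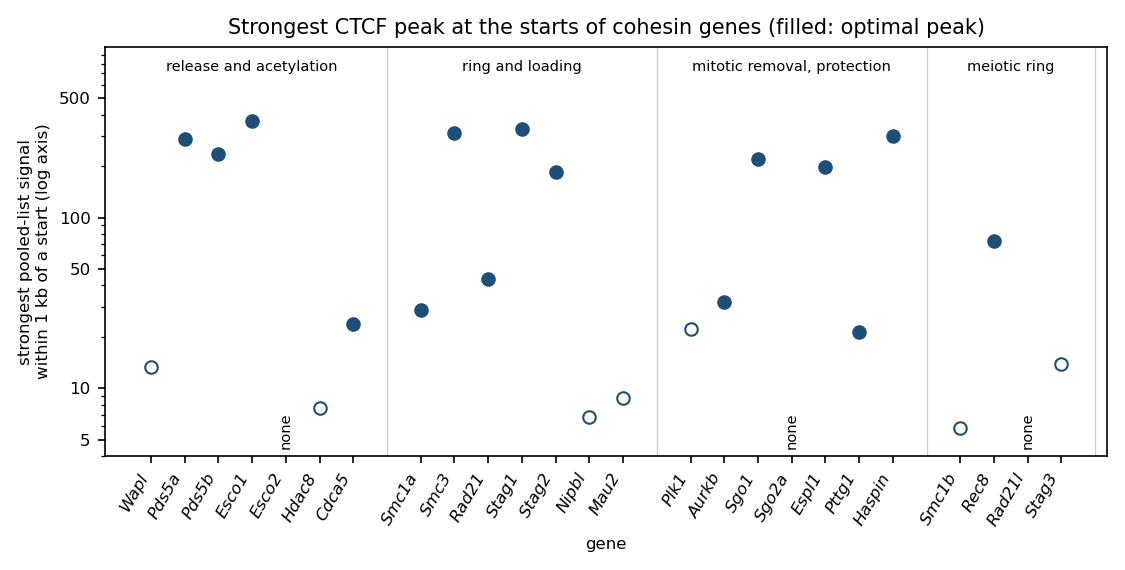
Signal of the strongest pooled-list peak within 1 kb of a start (log axis) for 25 cohesin genes in 4 lists, with filled circles where the optimal list also had a promoter peak and "none" where the pooled list had no peak there. Esco1 is highest at 366, and Wapl, Hdac8 and Esco2 are open circles or none.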

How the data were processed

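Per the deposited text files, peaks were called by the authors on mm10 alignments with a control, for each replicate and for both pooled (300000 peaks each). The optimal (50909) and conservative (49129) lists, thresholded by irreproducible discovery rate, derive from these. The deposited signal per peak is relative. Optimal and conservative peaks carry the pooled list's signal and were compared on that scale, and replicates were compared after division by each library's median. The caller's name and the read depth are not given in the sources used here. Control data, the signal tracks, the score and the q value columns were not used.

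Peaks on chromosomes (50888 optimal) were placed by summit on GENCODE vM21 and the GRCm38.p6 sequence with Python 3.11.15, pandas 2.3.3 and scipy 1.17.1. The motif search and summit matching were tested on simulated data. Wilson 95% intervals cover counting error only. No test was run, because there is 1 group of 2 libraries. All 7 genes are named, each with its promoter peak and strongest peak, and genes of 3 other lists are counted, with values for the 3 strongest. The members and lists were chosen with earlier results of these data known. Alternatives were other lists, single replicates, windows, flanks, mismatches and summit distances.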

Additional observations from a re-analysis of the deposited data

How the results depend on the processing

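The count of genes with a promoter peak stayed between 3 and 5 of 7 under every alternative tried, although which genes were counted changed with the list and the replicate. The share of all protein-coding genes moved more, from 18.0% above the median signal and 28.7% with a 500 bp window to 54.1% with a 5 kb window, where 4 of 7 (57.1%) is close to it. The number of peaks in the windows followed the window, at 10 without a flank and 52 with 50 kb, and it fell to 9 with peaks above the median signal only. Without replicate 1 or without replicate 2 it was 24 to 27. The share with a motif match was 38.5% with at most 1 mismatch (39.7% over all optimal peaks) and 96.2% with at most 3 (89.0%). In the conservative list it was 66.7% (70.5%). Above the median signal it was 77.8%, and the share over all optimal peaks above the median was not computed. With a single replicate it was 70.4% to 70.8%, above the 63.8% of all peaks in replicate 1 and below the 73.9% in replicate 2. The members' share was thus above or below the background depending on the setting. The share above the list's own median signal was 33.3% to 40.7% with a single replicate. Support by both libraries fell to 17 peaks when only each replicate's strongest peaks were used. No paired analysis was possible because there is 1 group, so no samples pair across groups, and differences between genes were taken within each library. Read depth is unknown, so the absence of a weak peak, as at Esco2, cannot be set against sampling error.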
